A study of Homo sapiens with 8 samples.

Results

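TFE3, its relatives TFEB and MITF, and 7 genes that relay nutrient supply to the kinase complex mTORC1 were followed in 2 cervical cancer cell lines after knockdown of IGF2R, the mannose 6-phosphate receptor that carries newly made hydrolases to the lysosome. These 10 genes were chosen with earlier results of the same arrays in view, and all 35 probe sets that the platform annotation assigns to 1 of them alone were taken. Of the 35, 16 probe sets of 9 genes were well measured, meaning that at least 1 of the arrays reached a signal of 500. The whole series had 16517 such probe sets of 54675, covering 8961 genes. RPTOR had no well measured probe set.

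BOKU and SKG-I cells received siCtrl, a control siRNA, or siIGF2R, which targets IGF2R, and were cultured for 72 h and then profiled on 3′ expression arrays. The question put to the arrays was which transcripts respond to loss of IGF2R. Each line and siRNA gave 1 total RNA, and each RNA was hybridised to 2 arrays, so that 8 arrays represent 4 RNA samples. The sources do not name which siRNA sequence against IGF2R was used. An effect of IGF2R loss and one of the siRNA sequence cannot be told apart on these arrays. Values are MAS5 signals, which are background-subtracted intensities on a linear scale, and changes are differences of mean log2 signal between siIGF2R and siCtrl. Ranges of a change run over the 4 possible pairs of 1 siIGF2R array and 1 siCtrl array, and cover array error only.

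TFE3, TFEB and MITF belong to the MiT family of basic helix-loop-helix leucine zipper transcription factors, which bind E-box motifs in front of lysosomal and autophagy genes. When amino acids are plentiful, heterodimers of RagA or RagB with RagC or RagD, anchored to the lysosome by the Ragulator complex, recruit mTORC1, and the small GTPase RHEB activates it there. Folliculin (FLCN) with FNIP1 or FNIP2 acts on RagC and RagD as a GTPase-activating protein, and mTORC1 bound to these Rags phosphorylates TFE3 and TFEB, which are then kept in the cytoplasm. The arrays measured mRNA and not the phosphorylation or location of these proteins.

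The stretch of 250 bases before the transcription start was available for 9 of the 10 genes, in 13 windows that differ by start site (RefSeq, GRCh38.p14). The E-box CACGTG, which reads the same on both strands, stood in 2 of the 13 windows and in 2228 of all 35116 windows (6.34%). The longer M-box, TCACGTG on either strand, which overlaps the E-box, stood in the same 2 windows and in 1161 of all windows (3.31%). The 8-base form TCACGTGA stood in 0 of 13 and in 300 of all windows (0.854%). The windows with an E-box were those of FNIP1 and RRAGC. They are shown with the TFE3 window, the gene with the largest lowering, which holds no CACGTG. Each is written 5′ to 3′ in the direction of the gene and ends at the base before the start, with CACGTG in capitals. TFE3 is at chrX:49043358-49043607, FNIP1 at chr5:131797018-131797267 and RRAGC at chr1:38859773-38860022, all on the minus strand.
TFE3: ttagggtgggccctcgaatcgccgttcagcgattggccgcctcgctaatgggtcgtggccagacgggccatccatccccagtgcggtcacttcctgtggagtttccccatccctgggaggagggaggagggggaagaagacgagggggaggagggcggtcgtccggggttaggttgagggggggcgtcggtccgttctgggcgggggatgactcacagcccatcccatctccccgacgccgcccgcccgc
FNIP1: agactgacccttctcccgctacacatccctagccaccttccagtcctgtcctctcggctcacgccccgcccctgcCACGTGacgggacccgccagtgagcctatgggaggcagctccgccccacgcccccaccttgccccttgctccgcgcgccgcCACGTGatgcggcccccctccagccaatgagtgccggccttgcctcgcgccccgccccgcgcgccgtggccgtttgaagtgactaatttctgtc
RRAGC: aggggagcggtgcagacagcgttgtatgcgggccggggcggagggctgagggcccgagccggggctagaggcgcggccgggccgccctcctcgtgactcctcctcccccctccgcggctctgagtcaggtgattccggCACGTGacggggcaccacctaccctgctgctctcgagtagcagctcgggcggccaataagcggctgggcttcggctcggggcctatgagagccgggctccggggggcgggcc
In FNIP1 the 2 E-boxes ended 169 and 88 bases before the end of the window, and in RRAGC the single E-box ended 106 bases before it. A match describes letters only, and binding was not measured.

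The knockdown was seen on both IGF2R probe sets. Probe set 201392_s_at gave 3672 and 3874 on the BOKU siCtrl arrays against 361 and 430 on the siIGF2R arrays, and 2021 and 1987 against 214 and 188 in SKG-I. Duplicate arrays differed with an SD of 0.269 to 0.349 on the log2 scale over all well measured probe sets. Of the epithelial markers, KRT8, KRT18 and KRT19 were high in both lines with siCtrl. EPCAM averaged 30.2 in BOKU siCtrl against 1527 in SKG-I siCtrl, and CDH1 averaged 2.59 against 158. KRT5 was near the bottom of the scale in both lines. In SKG-I, KRT19 averaged 7122 with siCtrl and 1954 with siIGF2R, while CDH1 averaged 158 and 635. Of the 7 epithelial markers, TP63 had no probe set assigned to it alone and is not in the sums. The others, 5 of them well measured, summed to 42643 and 33930 in BOKU siCtrl and siIGF2R and to 37513 and 28579 in SKG-I. The 6 fibroblast markers, 2 of them well measured, summed to 1522 and 1514 in BOKU and to 7931 and 6043 in SKG-I, mostly from COL1A1 and COL3A1. None of the leukocyte or endothelial markers was well measured, and the part of any of these in the results was not tested.

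Among the members, TFE3 was lower in siIGF2R in both lines and was the one gene with a probe set at least 2-fold lower in each. The other MiT factors did not move with it. TFEB was lower in BOKU and higher in SKG-I, and MITF was higher in SKG-I alone. On well measured probe sets, FLCN and RRAGC were lower in both lines by less than 2-fold. RRAGD was lower in SKG-I and near the bottom of the scale in BOKU. FNIP1, MTOR and RHEB stayed within 0.45 log2 units of siCtrl on their well measured probe sets. These contrasts were used to choose the genes, so they are given as a description without a test.

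TFE3 is widely expressed. On probe set 212457_at, the 2 arrays of each RNA gave 6066 and 7074 in BOKU siCtrl, 2970 and 2950 in BOKU siIGF2R, 4070 and 4206 in SKG-I siCtrl, and 1531 and 1646 in SKG-I siIGF2R. All siIGF2R arrays lay under all siCtrl arrays of both lines. The change was −1.15 (range −1.26 to −1.03) in BOKU and −1.38 (range −1.46 to −1.31) in SKG-I, which left 45.2% and 38.4% of the siCtrl signal. The second probe set, 206649_s_at, gave 786 and 928, then 499 and 458 in BOKU, and 732 and 544, then 274 and 285 in SKG-I. It showed the same order of the 4 RNA samples with no overlap, and changes of −0.84 (range −1.02 to −0.66) and −1.17 (range −1.42 to −0.93). Averaged over both probe sets the change was −0.99 in BOKU, just under 2-fold, and −1.28 in SKG-I. Leaving out any 1 array kept 212457_at between −1.26 and −1.04 in BOKU and between −1.43 and −1.33 in SKG-I. Probe set 1565347_s_at, outside the threshold with a highest signal of 320, gave 320 and 301 against 203 and 198 in BOKU, and 308 and 176 against 110 and 81.4 in SKG-I. The fourth, 1567704_at, reached 64.5. Both lower probe sets were not well measured.

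Over the 4 RNA means, the genes with the pattern most like that of TFE3 212457_at were PLSCR4 (Euclidean distance 0.0828 on the log2 scale, each gene centred on its mean), TNFRSF1A (0.128) and MUL1 (0.171). PLSCR4 is a phospholipid scramblase family member, TNFRSF1A a receptor of tumour necrosis factor, and MUL1 a mitochondrial ubiquitin ligase. Likeness over 4 points is a description of these samples.

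TFEB, the family member best known for lysosomal gene control, was read by 50221_at. It gave 631 and 814 in BOKU siCtrl, 562 and 489 in BOKU siIGF2R, 294 and 260 in SKG-I siCtrl, and 349 and 435 in SKG-I siIGF2R. The siIGF2R arrays lay under siCtrl in BOKU, with a change of −0.45 (range −0.73 to −0.17), and above siCtrl in SKG-I, with a change of 0.50 (range 0.24 to 0.75). The other TFEB probe set, 221866_at, reached only 150 and was not well measured.

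MITF, best known from melanocytes and osteoclasts, had a far higher signal in SKG-I than in BOKU. On 207233_s_at the signals were 292 and 328 in BOKU siCtrl, 300 and 272 in BOKU siIGF2R, 1540 and 1705 in SKG-I siCtrl, and 2778 and 3004 in SKG-I siIGF2R. On 226066_at they were 276 and 351, then 359 and 272 in BOKU, and 2153 and 1962, then 3955 and 3298 in SKG-I. The BOKU arrays overlapped on both probe sets, with changes of −0.11 and 0.01. In SKG-I every siIGF2R array was above every siCtrl array, with changes of 0.83 (range 0.70 to 0.96) and 0.81 (range 0.62 to 1.01), or 1.78-fold and 1.76-fold. Probe set 1554874_at reached 21.8.

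**Figure D1:**
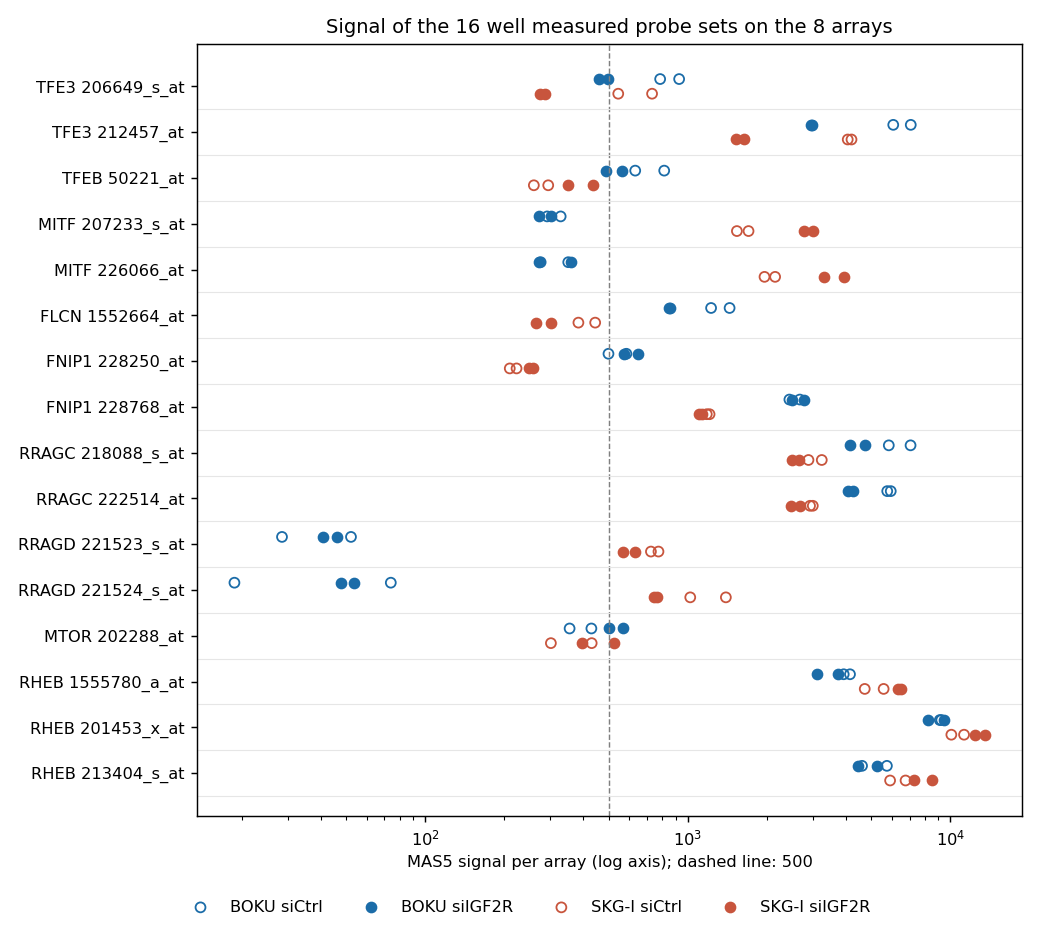
MAS5 signal (log axis) of the 16 well measured probe sets on the 8 arrays, with open circles for siCtrl, filled circles for siIGF2R, blue for BOKU and red for SKG-I, and a dashed line at the filter of 500. TFE3 212457_at forms 4 separate pairs from 7074 down to 1531, while the MITF and RRAGD circles of SKG-I lie far to the right of those of BOKU.

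On its 1 well measured probe set, FLCN, the tumour suppressor lost in Birt-Hogg-Dubé syndrome, was lower after the knockdown in each line. Its 1552664_at signals were 1444 and 1228 in BOKU siCtrl, 847 and 854 in BOKU siIGF2R, 444 and 384 in SKG-I siCtrl, and 264 and 301 in SKG-I siIGF2R. The groups did not overlap, and the changes were −0.65 (range −0.77 to −0.52) and −0.55 (range −0.75 to −0.35). The other 3 FLCN probe sets reached 62.2 to 274 and were not well measured. Of these, 215645_at went the other way in BOKU, with 192 and 205 in siCtrl against 264 and 274 in siIGF2R. In SKG-I it gave 176 and 137, then 60.2 and 121. Probe set 235250_at gave 241 and 259, then 181 and 188 in BOKU, and 79.7 and 121, then 11.3 and 57.4 in SKG-I. Left out was 1 further probe set that FLCN shares with PLD6. FNIP1, the partner of FLCN, showed no lowering like that of 1552664_at on its well measured probe sets. On 228768_at it gave 2674 and 2440, then 2766 and 2506 in BOKU, and 1212 and 1183, then 1136 and 1107 in SKG-I, which are changes of 0.04 and −0.09. On 228250_at it gave 499 and 584, then 644 and 570 in BOKU, and 223 and 210, then 259 and 249 in SKG-I, which are changes of 0.17 and 0.23. The probe sets overlapped between siRNAs in BOKU and went opposite ways in SKG-I, where both changes were small. The 3 other FNIP1 probe sets reached 87.0 to 243.

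RRAGC encodes RagC, which pairs with RagA or RagB and is a substrate of FLCN. Probe set 218088_s_at gave 5834 and 7061 in BOKU siCtrl, 4167 and 4721 in BOKU siIGF2R, 2885 and 3241 in SKG-I siCtrl, and 2660 and 2507 in SKG-I siIGF2R. Probe set 222514_at gave 5755 and 5935, then 4090 and 4254 in BOKU, and 2924 and 2996, then 2466 and 2687 in SKG-I. All siIGF2R arrays lay under siCtrl, by −0.53 and −0.49 in BOKU and by −0.24 and −0.20 in SKG-I. The remaining RRAGC probe set, 242531_at, reached 62.1.

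RRAGD encodes RagD, whose gene is itself a known target of MiT factors. On 221523_s_at the signals were 725 and 774 in SKG-I siCtrl and 567 and 628 in SKG-I siIGF2R, a change of −0.33 (range −0.45 to −0.21). On 221524_s_at they were 1023 and 1398 against 741 and 765, a change of −0.67 (range −0.91 to −0.42). In BOKU the signals were 28.5 and 52.2, then 40.8 and 46.3 on the first and 18.8 and 74.1, then 47.9 and 53.7 on the second, where the median signals of the BOKU arrays were 65.0 to 71.9. Both siIGF2R arrays lay between the siCtrl arrays there, and no change was read from the differences of 0.17 and 0.44.

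MTOR, the kinase of the complex, gave 355 and 430 in BOKU siCtrl, 568 and 501 in BOKU siIGF2R, 431 and 301 in SKG-I siCtrl, and 525 and 395 in SKG-I siIGF2R on 202288_at. The arrays were separate in BOKU, with a change of 0.45 (range 0.22 to 0.68), and overlapped in SKG-I, with 0.34 (range −0.13 to 0.80). MTOR reached the threshold on siIGF2R arrays alone, and its highest siCtrl signal was 431. Its entry among the well measured probe sets thus favoured a rise, and no rise was read from these changes. With a highest signal of 568 MTOR was the member nearest inside the threshold, followed by FNIP1 228250_at at 644 and RRAGD 221523_s_at at 774. Just outside were RHEB 227633_at at 438, RHEB 213409_s_at at 408 and TFE3 1565347_s_at at 320. MTOR 215381_at reached 26.2. RPTOR, the scaffold that binds mTORC1 substrates, gave 163 and 180, then 120 and 281 in BOKU, and 312 and 267, then 311 and 313 in SKG-I on 225715_at, and no change was read from it.

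RHEB was measured by 3 probe sets with high signals. Probe set 1555780_a_at gave 4151 and 3929, then 3741 and 3102 in BOKU, and 5576 and 4725, then 6510 and 6341 in SKG-I, so that its siIGF2R arrays were on opposite sides of siCtrl in the lines (changes −0.25 and 0.32). On 201453_x_at the signals were 9245 and 9125, then 8243 and 9438 in BOKU, and 11287 and 10097, then 13553 and 12445 in SKG-I. On 213404_s_at they were 5738 and 4614, then 5284 and 4441 in BOKU, and 6757 and 5901, then 8530 and 7297 in SKG-I. These 2 overlapped in BOKU (changes −0.06 and −0.09) and were higher in SKG-I without overlap (0.28 and 0.32). The suffix x marks a probe set that can bind related transcripts. The other 6 RHEB probe sets reached 75.9 to 438.

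Set against all well measured probe sets, 1 of the 16 member probe sets, that of TFE3, was at least 2-fold lower in both lines (2.28% of all), and 0 were at least 2-fold higher (3.15% of all). None was at least 2-fold higher in BOKU (7.51% of all) or in SKG-I (8.62% of all) either. In SKG-I alone both TFE3 probe sets were at least 2-fold lower (6.33% of all), and in BOKU 1 was (4.92% of all). Arrays of siIGF2R were all lower than siCtrl in both lines for 5 of 16 probe sets (23.6% of all), those of TFE3, FLCN and RRAGC, and all higher for 0 (26.4% of all). They were on 1 side of siCtrl, up or down, for 8 of 16 in BOKU (74.8% of all) and for 15 of 16 in SKG-I (81.8% of all), where MTOR was the exception. They were on opposite sides in the 2 lines for 2 of 16 (13% of all), TFEB 50221_at and RHEB 1555780_a_at. The 8 of 16 in BOKU include MTOR, which reached the filter signal on siIGF2R arrays alone. The median change of the 16 was −0.10 in BOKU and 0.07 in SKG-I, and over all probe sets it was 0.03 and −0.00. The rule used these contrasts, so nothing was read from the shares.

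**Figure D2:**
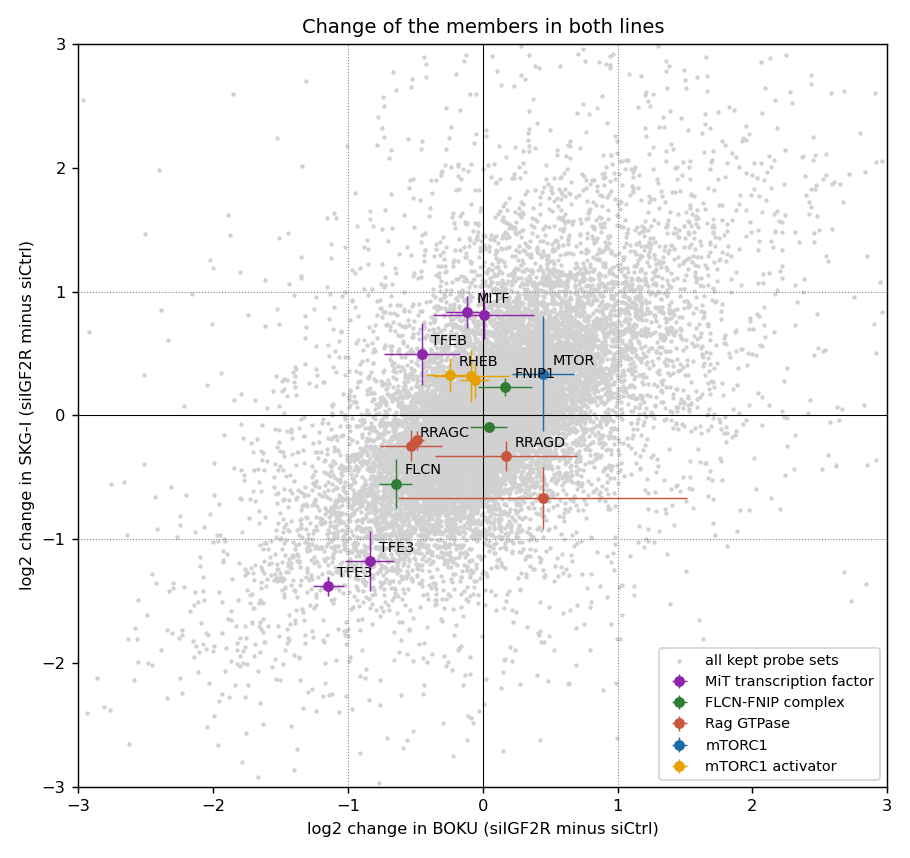
Change in BOKU (x axis) against change in SKG-I (y axis), both as log2 siIGF2R minus siCtrl, for the 16 member probe sets (coloured by role, bars are ranges over 4 array pairs, gene name beside the first probe set of a gene and both of TFE3) over all well measured probe sets in grey, of which 157 lie beyond the axes. The TFE3 points are at the lower left (−1.15 and −1.38, −0.84 and −1.17), those of MITF are above 0 on the y axis alone.

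With siCtrl the lines differed in the signal of most of these genes. There, 4 of the 16 probe sets, those of MITF and RRAGD, were at least 2-fold higher in SKG-I than in BOKU (18.6% of all probe sets), and 5, those of TFEB, FLCN and FNIP1 and 1 of RRAGC, were at least 2-fold lower (16.4% of all). The median absolute difference between the lines was 1.08 log2 units over the 16 and 0.68 over all probe sets. The probe sets of MITF and RRAGD reached the filter signal on SKG-I arrays alone. Those of TFEB and FLCN and FNIP1 228250_at reached it on BOKU arrays alone. A difference between the lines was thus part of how these entered the 16. The genes were also chosen with earlier results of these arrays in view, so nothing was read from the shares or the medians. With 1 RNA a line, a difference between the lines and one between these cultures cannot be told apart.

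MITF was 5.24-fold and 6.61-fold higher in SKG-I siCtrl by its 2 probe sets, and 10.1-fold and 11.6-fold higher after siIGF2R. RRAGD was 19.4-fold and 32.1-fold higher in SKG-I siCtrl, and 7.49-fold and 12-fold when signals under 100 were set to 100, since the BOKU signals were near the bottom of the scale. The reverse held for FLCN, which was 3.23-fold higher in BOKU, TFEB with 2.59-fold, FNIP1 with 2.50-fold and 2.13-fold, and RRAGC with 2.10-fold and 1.97-fold. TFE3 was 1.35-fold and 1.58-fold higher in BOKU and RHEB 1.16-fold to 1.27-fold higher in SKG-I, and MTOR overlapped between the lines. After siIGF2R the TFEB difference was 1.35-fold, that of FLCN 3.02-fold and that of RRAGC 1.72-fold and 1.62-fold.

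The order of the 4 RNA samples set TFE3 apart from FLCN and RRAGC in a descriptive way. For TFE3, both siCtrl RNAs were above both siIGF2R RNAs. For FLCN and RRAGC, both BOKU RNAs were above both SKG-I RNAs, with siCtrl above siIGF2R inside each line. In none of these 5 probe sets did neighbours in the order overlap.

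**Figure D3:**
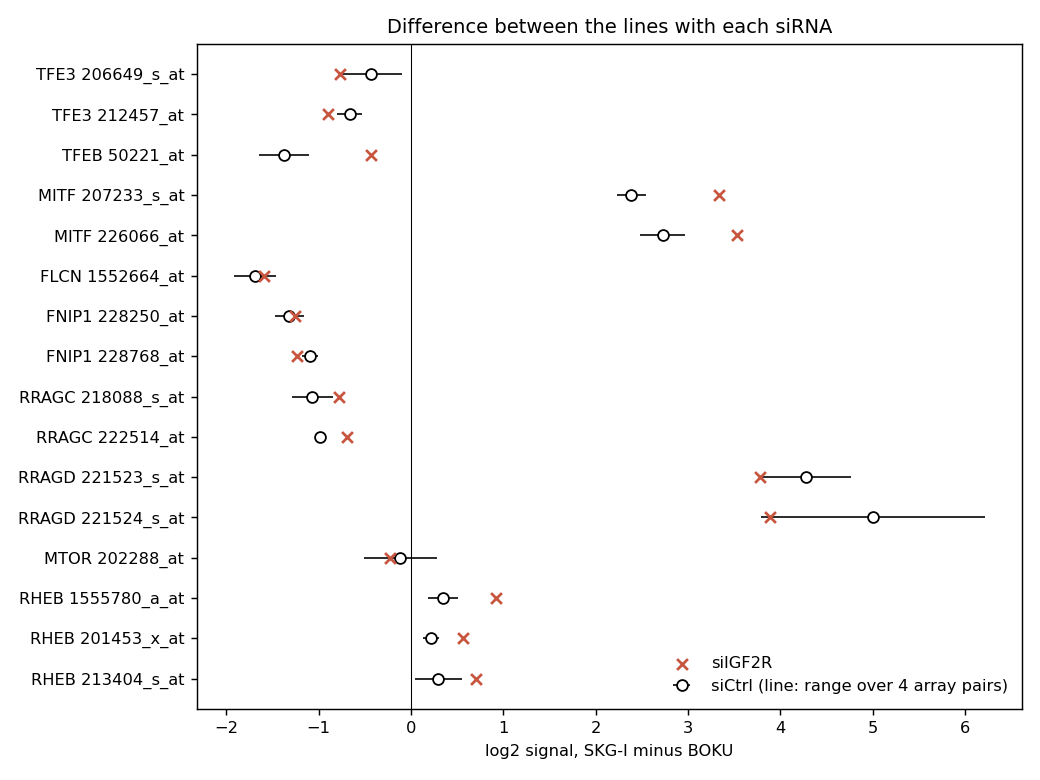
Difference of log2 signal between SKG-I and BOKU for each member probe set, with open circles for siCtrl, bars for the range over 4 array pairs and crosses for siIGF2R. MITF and RRAGD lie at 2.39 to 5.00 with siCtrl, FLCN at −1.69 is the lowest, and the bar of MTOR crosses 0.

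The surrounding pathway was described with 93 other genes in 9 lists, of which 78 were measured, each by its well measured probe set with the highest mean signal. Their siIGF2R and siCtrl samples were compared by limma, which blocked on the line, and p-values were adjusted over all 16517 probe sets. Of the 78 genes, 6 fell (2.35% of all measured genes did) and 2 rose (2.59% of all), while without adjustment 21 were lower (13.9% of all measured genes) and 9 higher (14.4% of all) at 0.05. The lists were chosen with earlier results of these arrays known, so the counts stand as a description.

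Close to the members, 2 of 8 measured Rag partners and Ragulator genes fell (2.35% of all measured genes did). RRAGA, which encodes the RagA that pairs with RagC or RagD, gave 12755 and 14176, then 5434 and 5179 in BOKU, and 10007 and 10936, then 3542 and 3517 in SKG-I. It fell by 1.45 on the log2 scale (SE 0.15, n = 2 lines, adjusted p = 0.0221 by limma), to a level under siCtrl on every siIGF2R array. SLC38A9, the lysosomal arginine sensor that binds the Rags and Ragulator, gave 1682 and 1852, then 600.1 and 568 in BOKU, and 1007 and 957, then 454 and 476 in SKG-I, and fell by 1.34 (SE 0.23, adjusted p = 0.0434 by limma). The adaptor LAMTOR3 had a change of 1.01 (adjusted p = 0.0518 by limma) and FNIP2, the FNIP1 paralogue, one of 1.04 (adjusted p = 0.0553 by limma), and neither passed. These last 2 were named after their values were seen.

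DEPTOR, an inhibitory subunit of mTORC1 and mTORC2, was the gene with the largest change in the lists. It gave 4272 and 4254, then 988 and 1229 in BOKU, and 1108 and 1149, then 93.1 and 91.1 in SKG-I. It fell by 2.78 (SE 0.40, adjusted p = 0.0314 by limma), with −1.95 in BOKU and −3.61 in SKG-I. It was the 1 of 6 measured mTOR complex subunits that passed (2.35% of all measured genes fell). The SKG-I siIGF2R signals were near the medians of those arrays (74.6 and 71.0), and with signals under 100 set to 100 the change was −3.50 in SKG-I and −2.72 over both lines (adjusted p = 0.0267 by limma). Of 5 amino acid sensor genes, 1 rose (2.59% of all measured genes did). This was SESN1, a stress-induced sestrin that binds GATOR2, which rose by 1.15 (SE 0.18, adjusted p = 0.0377 by limma). Its signals went from 2146 and 2130 to 4375 and 4421 in BOKU and from 1329 and 1113 to 2927 and 2884 in SKG-I. The study itself picked SESN1 from these arrays, which means that this is no independent evidence of its direction. PDPK1, the kinase that phosphorylates AKT, rose by 1.07 (SE 0.19, adjusted p = 0.0442 by limma). It was the 1 of 12 TSC complex and upstream kinase genes that passed (2.59% of all measured genes rose). Its other probe sets gave 1.08 (adjusted p = 0.0602 by limma) and 0.17 (adjusted p = 0.765 by limma).

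Over all measured genes, 2.59% rose and 2.35% fell by limma, and the unadjusted shares were 14.4% higher and 13.9% lower. By limma 0 genes passed among the 5 of GATOR1 and KICSTOR (0 also at an unadjusted p under 0.05) and the 4 of GATOR2 (1 higher unadjusted). Nor did any pass among the 6 MiT regulators (2 lower unadjusted) and the 11 mTORC1 outputs (3 higher and 2 lower unadjusted). The largest changes there were those of KPTN (−0.36), SEH1L (0.79), the lysosomal calcium channel MCOLN1 (−1.05) and the phosphatidate phosphatase LPIN1 (−0.90), with adjusted p = 0.394, 0.0722, 0.0896 and 0.0743 by limma.

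Of the 21 measured genes on a list of known MiT targets, 3 fell (2.35% of all measured genes did) and 0 rose (2.59% of all) by limma. Without adjustment 10 were lower (13.9% of all measured genes) and 0 higher (14.4% of all) at 0.05. The list was chosen with results of these arrays known, and nothing particular to it was read from the counts. The median change of the list was −0.36 (−0.47 in BOKU and −0.32 in SKG-I), and that of all measured genes was 0.01. GPNMB, a transmembrane glycoprotein used as a reporter of TFE3 activity, gave 3121 and 2955, then 1190 and 1145 in BOKU, and 325 and 440, then 55.8 and 61.4 in SKG-I. It fell by 2.04 (SE 0.36, adjusted p = 0.0436 by limma), but its SKG-I siIGF2R signals lay under the array medians of 74.6 and 71.0. With signals under 100 set to 100 the change was −1.92 in SKG-I and −1.65 over both lines (adjusted p = 0.0291 by limma). The cysteine protease cathepsin B (CTSB) gave 22540 and 24989, then 11573 and 10717 in BOKU, and 5889 and 6001, then 1440 and 1592 in SKG-I. It fell by 1.53 (SE 0.23, adjusted p = 0.0335 by limma), and its 4 other probe sets fell by 1.42 to 1.82. In the study's own quantitative RT-PCR at 72 h, cathepsin mRNA was described as little affected by IGF2R knockdown. That difference from the arrays was not tested. The peptidase TPP1 fell by 0.95 (SE 0.17, adjusted p = 0.0460 by limma), a second probe set by 1.14 (adjusted p = 0.0416 by limma), while the remaining one, at −0.59, did not pass (adjusted p = 0.185 by limma). Whether the change of TFE3 had a part in any of these was not tested.

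The test had 1 residual degree of freedom a probe set, with 4.82 added from the spread of all, and no gene of these lists passed without the variance trend or without the line block. Without BOKU siCtrl array 2, SLC38A9, GPNMB, PDPK1 and TPP1 did not pass (adjusted p of 0.0533 to 0.0558 by limma), and after quantile normalisation CTSB, GPNMB, PDPK1 and TPP1 did not (0.0515 to 0.0599).

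**Figure D4:**
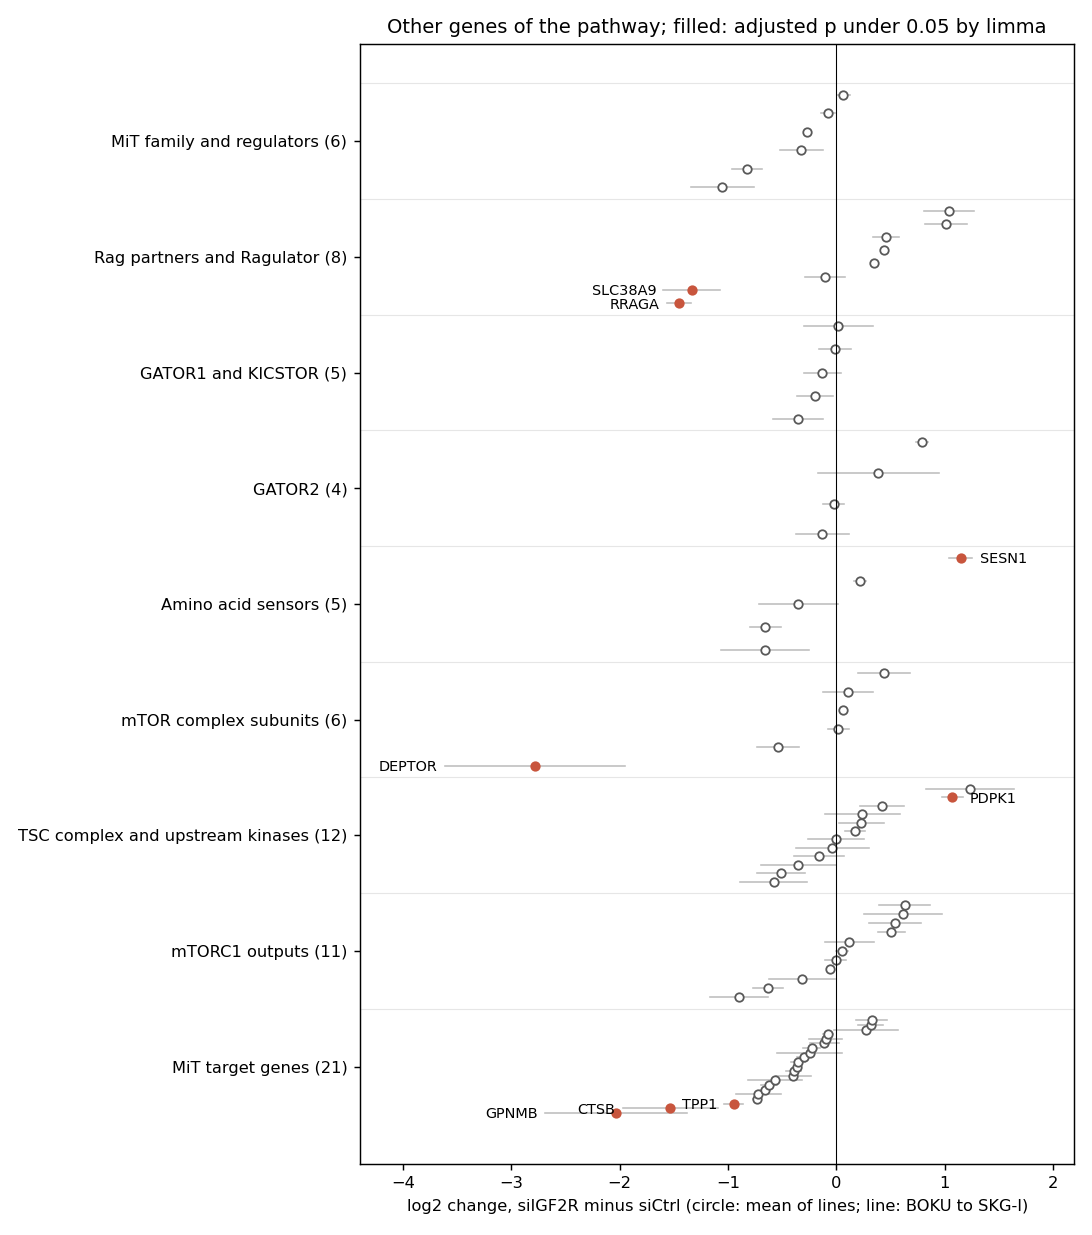
Log2 change (siIGF2R minus siCtrl) of the 78 measured genes in 9 pathway lists, with the number measured in brackets, a circle for the mean of the lines, a line from BOKU to SKG-I, and filled circles with names for an adjusted p under 0.05 by limma. Of the 8 filled circles 6 lie left of 0, with DEPTOR at −2.78 the farthest.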

How the data were processed

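BOKU and SKG-I RNA (siCtrl or siIGF2R, 72 h) was measured on 8 arrays, and groups follow the labels. The authors deposited 1 intensity per probe set and array. The submitters' processing notes name MAS5, whose background subtraction and scaling were done before deposition. Trimmed means were alike on all arrays (497), whereas the methods describe another scaled level, so levels are relative. No further normalisation was applied here. Log2 signals were used without a floor. After removal of 62 control probe sets, a signal of 500 on 1 or more arrays was required. The 2 arrays of an RNA were averaged, since the study states that they share 1 RNA.

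R 4.3.3 and limma 3.58.1 were used (lmFit and eBayes with trend, line as a block, two-sided, Benjamini-Hochberg, threshold 0.05), tested on simulated data. The number of arrays limits the precision, and p-values rest on 2 lines. Members got no test. The members and lists were chosen with earlier results of these data known. Named were all members, every called gene of a list (at most 4), otherwise its largest change, IGF2R, and the 3 genes nearest to TFE3. Gene names come from the platform annotation and promoters from RefSeq (GRCh38.p14). Alternatives covered the filter, normalisation, floor, added constant, means, variance model, block, the methods' t-test and leaving out each array.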

Additional observations from a re-analysis of the deposited data

Results flagged for a closer look

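For 2 member probe sets, every siIGF2R array lay on one side of the siCtrl arrays in BOKU and on the other side in SKG-I, as 13% of all well measured probe sets did. The log2 change of TFEB (50221_at) was −0.45 in BOKU and 0.50 in SKG-I, 0.946 apart. That of RHEB (1555780_a_at) was −0.25 and 0.32, 0.57 apart (0.5695), while its other 2 probe sets overlapped in BOKU. These differences between the lines were not tested.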

How the results depend on the processing

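The TFE3 probe set 212457_at remained the 1 member at least 2-fold lower in both lines under the alternatives run, except that 2 member probe sets passed at a 1.5-fold threshold and 0 passed the methods' t-test after Benjamini-Hochberg adjustment (1 before it). Leaving out any 1 array gave 1. Under the alternatives, 456 values of members moved by less than the spread of the arrays and 10 by more. Many of the 456 could not have moved further. Dropping the filter or leaving out an array of the other line does not alter the change of a probe set. Leaving out an array of the same line averages 2 of the 4 array pairs and stays within their range. The count is thus no measure of robustness. The mean of both TFE3 probe sets, −0.99 in BOKU and −1.28 in SKG-I, was just short of 2-fold in BOKU. The mean of the FNIP1 probe sets was 0.07 in SKG-I, where 228768_at alone was −0.09. None of the 12 genes that the naming rule took from the other pathway lists turned its direction under the alternatives run. LAMTOR3 and FNIP2, named after their values were seen, were not among these. The count of other pathway genes that fell, 6, and rose, 2, became 3 and 1 after quantile normalisation, 3 and 1 when all probe sets of each gene were averaged, and 0 and 0 without the line block or without the variance trend. With a constant of 64 added, 5 rose. Leaving out 1 array gave 3 to 10 that fell and 1 to 6 that rose, with 10 and 6 without BOKU siCtrl array 1 or BOKU siIGF2R array 2, 3 and 1 without BOKU siCtrl array 2, and 4 that rose without SKG-I siCtrl array 2 or SKG-I siIGF2R array 2. With arrays as separate samples, 27 fell and 16 rose with the replicate block and 27 and 17 without it. The deviations of arrays with the same number correlated between groups at −0.00608 to 0.126, highest between BOKU siCtrl and BOKU siIGF2R. These low values do not settle whether the numbers pair the arrays. Duplicate arrays share an RNA, and the counts with arrays as separate samples measure array error only. RRAGA, DEPTOR and SESN1 lost their call only without the trend or the line block. After quantile normalisation CTSB had adjusted p = 0.0599 and GPNMB 0.0540 by limma. TPP1 also lost its call without BOKU siIGF2R array 1 (adjusted p = 0.0501 by limma) or SKG-I siIGF2R array 1 (0.0524), and LPIN1 and SEH1L passed without BOKU siCtrl array 1 (0.0330 and 0.0470) or BOKU siIGF2R array 2 (0.0442 and 0.0491). Signals near the array medians, such as RRAGD in BOKU, limit what can be read.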
